A study of Homo sapiens with 6 samples.

Results

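The genes of the oxidative phosphorylation (OXPHOS) system were followed after DAC (decitabine), a cytidine analogue that inhibits DNA methyltransferases, in the breast cancer cell line MDA-MB-231 and in HMLER cells, a line obtained by transformation of human mammary epithelial cells in culture. Members were chosen by symbol: all names beginning with NDUFA, NDUFB, NDUFC, NDUFS, NDUFV, UQCR or ATP5, the nuclear cytochrome c oxidase subunits COX4 to COX8, SDHA, SDHB, SDHC, SDHD, CYC1 and CYCS, without symbols that end in P and a number, which dropped 3 symbols. This gave 99 of the 23617 symbols in the MDA-MB-231 table, with 173 transcripts. Polyadenylated RNA was sequenced in 6 libraries, and each pooled several separate extractions. The untreated and the DAC-treated MDA-MB-231 cells gave 1 library each, and the untreated and the DAC-treated HMLER cells gave 2 each. Treated cells of both lines received 10 µM DAC every day and were collected 72 h after the first dose. A label gives the untreated MDA-MB-231 library another line number, and its title, which names MDA-MB-231, was followed.

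The values are FPKM, fragments per kilobase of transcript scaled to the mapped fragments of the library, so levels can be compared between genes. For each symbol the FPKM of its transcripts were summed. Cuffdiff gives each value a lower and an upper bound, and bounds were summed in the same way. With 1 library per condition there was no replicate spread in MDA-MB-231 and no test was run, so ratios of DAC over untreated FPKM are descriptions of 2 libraries. Log2 changes were taken after adding 1 FPKM to both values, which understates the change of low genes. The HMLER table has 1 merged value per condition and lists 2009 transcripts of 1854 symbols, each transcript more than 2-fold higher after DAC. A symbol may be listed for 1 of its transcripts, so its total in HMLER is not known. A member missing from the table has no HMLER value here. The median ratio over the 11292 symbols with at least 1 FPKM in both libraries was 0.912, or -0.13 on the log2 scale. This shift differed with level. Outside the OXPHOS set the median log2 change was 0.0035 between 1 and 10 FPKM and -0.36 at 200 FPKM or more. The changes below are to be read against this median and against symbols of like level, which are given further on. Summed over all symbols, FPKM was 589238 without and 480455 with DAC, a ratio of 0.815. Of the 4 genes set as markers of this mesenchymal-like line, VIM and CD44 were at 3066 and 212.3 FPKM without DAC and lower, at 1134 and 138.7 FPKM, with it. The other markers of the line, FN1 and SPARC, were at 39.8 and 2.09 FPKM without DAC and higher, at 111.3 and 11.3 FPKM, with it. Bounds of the libraries overlapped for VIM (0 to 10419 FPKM without DAC), CD44 and FN1, and not for SPARC. Of the 5 epithelial and receptor genes that should be low, CDH1, ESR1 and PGR did not pass 0.179 FPKM in either library, while ERBB2 was at 11.8 and 12.7 FPKM and EPCAM at 7.90 and 9.78 FPKM. The 11 markers set for other cell types summed to 0.478 FPKM without and 3.20 FPKM with DAC, and the highest was CKM at 1.74 FPKM. The markers could not be checked in HMLER cells, whose table is limited to transcripts that were higher.

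OXPHOS takes place in the inner mitochondrial membrane. Complex I (NADH dehydrogenase) and complex II (succinate dehydrogenase) pass electrons to ubiquinone, complex III (cytochrome bc1) hands them to the small soluble protein cytochrome c, and complex IV (cytochrome c oxidase) gives them to oxygen. The proton gradient built on the way drives complex V, the ATP synthase. Each complex has core subunits, among them those that carry electrons or catalyse the reaction, and, except complex II, accessory (supernumerary) subunits. All but a small set, encoded by mitochondrial DNA, are nuclear genes with promoters that are active in nearly every cell. A few complex IV subunits exist as a widely expressed form and as an isoform restricted to muscle, testis or low oxygen. The subunits encoded by mitochondrial DNA were not analysed here.

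The OXPHOS genes had almost the same median ratio as all expressed genes, and none of the abundant members differed by 2-fold. Of the 99 members, 93 passed 1 FPKM in one or both MDA-MB-231 libraries and 89 passed it in both. By complex the 99 were 37 of complex I with 7 of its assembly factors, 4 of complex II, 10 of complex III, cytochrome c, 19 of complex IV, 16 of complex V and 5 other matches of the symbol rule. These 5 are the read-through transcripts NDUFC2-KCTD14 and ATP5J2-PTCD1, the antisense RNA NDUFB2-AS1, and ATP5S and ATP5SL, which are not subunits. The 89 had untreated levels from 6.07 FPKM (NDUFAF5, an assembly factor of complex I) to 914.1 FPKM (COX8A, a small subunit of complex IV), with a median of 124.6 FPKM against 14.99 FPKM for all symbols expressed in both libraries. The ratios of DAC over untreated ran from 0.607 to 1.28, with a median of 0.915 beside 0.912 for all symbols. Over the 12525 symbols that passed 1 FPKM in one or both libraries, 10.8% had a ratio above 2 and 4.82% were lower by the same factor. Among the 93 members, 4 had a ratio above 2, all of them under 1 FPKM in untreated cells, and 0 were lower by that factor. The bounds of the libraries overlapped for all 93, where 1.01% of all symbols at this level had bounds apart in either direction. The median log2 change of the 93 was -0.11, beside -0.08 for all symbols. With DAC values rescaled by the median ratio of the table it was 0.023, so that the sign of the group depends on this scaling. The members summed to 16167 FPKM without and 15101 FPKM with DAC, a ratio of 0.934. Their share of all FPKM was 2.74% and 3.14%. Of the 89 members in both libraries 62 had a ratio under 1, and so had 61.1% of all 11292 symbols at that level. This share rose with level among symbols outside the OXPHOS set. By mean FPKM it was 65.0% between 10 and 50, 73.0% between 50 and 100, 76.9% between 100 and 200 and 83.4% at 200 or more. The counts of ratios under 1 below are to be read against the share at like level.

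**Figure D1:**
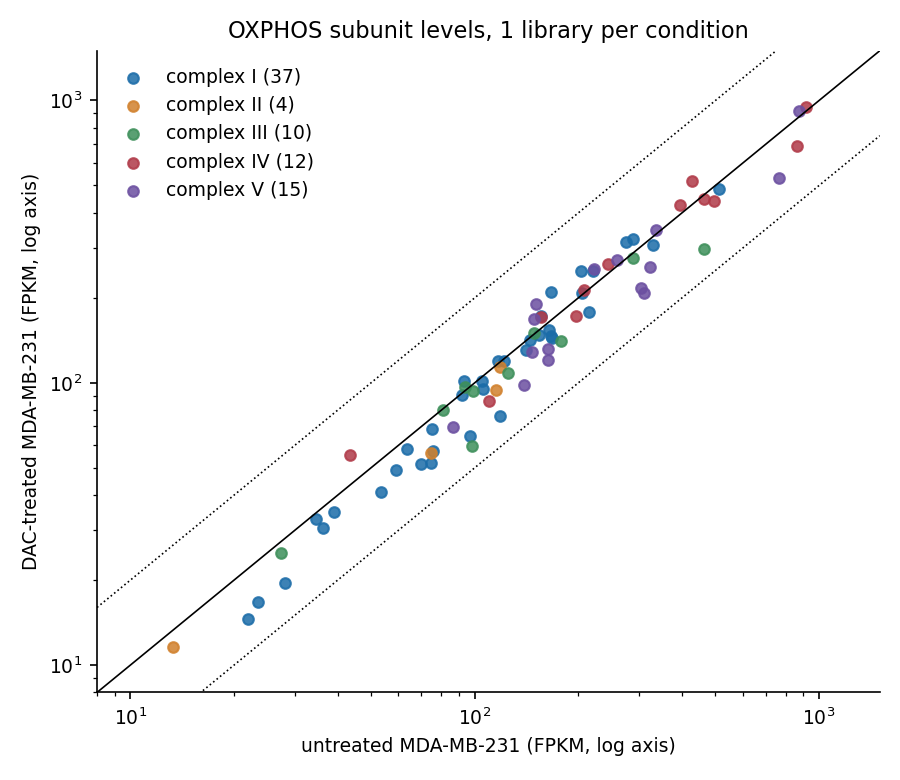
FPKM of 78 subunit genes of complexes I to V at 1 FPKM or more in both MDA-MB-231 libraries, untreated on the x axis and DAC-treated on the y axis, both logarithmic. The solid line marks equal values and the dotted lines a 2-fold difference, which no point reaches.

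Counting error behind these levels was small, and the bounds that Cuffdiff gave were wide. For transcripts alone at their locus, the lowest FPKM values in both libraries, those under 0.1 once multiplied by the effective length in kilobases, fell on whole multiples of what 1 sequenced fragment (called a read here) is worth. With an effective length taken as the transcript length minus 200 bases, 100% of 994 such values of the untreated library and of 1108 such values of the treated one lay within 0.1 of a whole read. Higher values, such as the isoforms after DAC described further on, did not all fall on whole reads, so read numbers are estimates rounded to whole reads. On this scale the 52 members with a single transcript and 1 FPKM or more in both libraries had from 633 to 53477 reads, which leaves a counting error of at most 3.98% of the level. Cuffdiff's bounds were far wider, with a median half-width of 49.2% of the untreated level over the 89 members. Differences between cultures, which counting does not cover, were not measured.

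Complex I has 37 members, 7 of the core and 30 supernumerary, and all passed 1 FPKM in both libraries. Their sum was 5013 FPKM without and 4855 FPKM with DAC, a ratio of 0.969, and 28 of the 37 had a ratio under 1. The highest untreated levels were those of supernumerary subunits. NDUFS6, a zinc-binding subunit of the peripheral arm, was 513.4 FPKM (bounds 279.9 to 746.9) and 486.2 FPKM (bounds 266.9 to 705.5) after DAC. NDUFA1, a membrane-arm subunit, was 329.6 FPKM and 307.1 FPKM after DAC. NDUFA13, also known as GRIM19, was 287.4 FPKM and 321.8 FPKM after DAC. The ends of the range were NDUFA11, a membrane subunit, with 166.0 and 209.4 FPKM (ratio 1.26), and NDUFS4, needed late in the assembly of the arm that binds NADH, with 118.8 FPKM (bounds 62.2 to 175.4) and 76.5 FPKM (bounds 37.3 to 115.8; ratio 0.644). Among the 7 core subunits, NDUFS7, which holds the last iron-sulphur cluster before ubiquinone and is named after its value was seen, was 97.1 and 64.6 FPKM (ratio 0.665), while NDUFS3 was 116.6 and 119.0 FPKM. The 7 assembly factors that the symbol rule also takes in, NDUFAF1 to NDUFAF7, build complex I without staying in it. They had untreated levels from 6.07 to 54.8 FPKM and ratios from 0.641 to 1.26.

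Complex II consists of 4 core subunits, and each had a ratio under 1. SDHB, the iron-sulphur subunit, was 118.3 FPKM and 113.3 FPKM after DAC (ratio 0.958). SDHA, the flavoprotein that oxidises succinate, was 115.5 and 94.6 FPKM (ratio 0.819), and SDHD, a membrane anchor, was 74.7 FPKM (bounds 40.8 to 108.6) and 56.3 FPKM (bounds 30.3 to 82.3; ratio 0.754). SDHC, the other anchor, had the lowest level of the 4, with 13.3 and 11.6 FPKM. The median log2 change of complex II was -0.23, and -0.11 with the rescaled values.

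In complex III the 2 nuclear core subunits had lower ratios than the accessory ones. CYC1 (cytochrome c1) was 463.0 FPKM (bounds 221.2 to 704.8) without DAC and 297.5 FPKM (bounds 155.6 to 439.3) with it, a ratio of 0.642. UQCRFS1, the Rieske iron-sulphur protein, was 98.1 FPKM (bounds 54.2 to 142.1) and 59.6 FPKM (bounds 31.7 to 87.4), a ratio of 0.607, the lowest of the 89 members expressed in both libraries. Both pairs of bounds overlapped. The log2 change of CYC1 was -0.64, beside a median of -0.36 for symbols outside the OXPHOS set at 200 FPKM or more. That of UQCRFS1 was -0.71, beside -0.21 for such symbols between 50 and 100 FPKM. The 7 supernumerary subunits, among which UQCRC1 and UQCRC2 were counted, had ratios from 0.792 (UQCRC2, one of the large matrix-side proteins) to 1.03 (UQCR11), with a median of 0.942. UQCRH, a small acidic subunit, was 288.6 and 275.9 FPKM. UQCRHL, listed at 149.0 and 150.2 FPKM, is a near copy of UQCRH, so how the reads were divided between the pair is uncertain. Cytochrome c itself (CYCS), the carrier between complexes III and IV that also triggers the apoptosome once it leaves mitochondria, was 41.5 FPKM (bounds 22.4 to 60.7) and 28.2 FPKM (bounds 15.6 to 40.8), a ratio of 0.678.

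The 12 widely expressed members of complex IV were at high levels and close to equal in the libraries, with sums of 4513 and 4434 FPKM and a median ratio of 1.03. COX8A was 914.1 FPKM and 951.0 FPKM after DAC, COX7C 864.4 and 691.0 FPKM, and COX4I1, the largest nuclear subunit, 496.6 and 440.0 FPKM. The highest ratio was that of NDUFA4, once assigned to complex I and now counted in complex IV, with 43.4 and 55.4 FPKM (ratio 1.28). The lowest was that of COX7A2L, which joins complexes III and IV in supercomplexes, with 109.8 and 86.3 FPKM (ratio 0.786).

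In complex V the alpha, beta and gamma subunits, which form the catalytic head and the shaft that turns in it, had ratios under the median of the table. Their log2 changes ran from -0.57 to -0.49. Symbols outside the OXPHOS set had a median of -0.36 at 200 FPKM or more. At 100 FPKM or more and 1000 bases or longer it was -0.37. ATP5B (beta) was 765.7 and 530.6 FPKM (ratio 0.693), ATP5A1 (alpha) 310.0 and 207.9 FPKM (ratio 0.671), and ATP5C1 (gamma) 304.2 and 216.2 FPKM (ratio 0.711). ATP5E (epsilon), the smallest subunit of the shaft, was 875.9 and 920.1 FPKM. The supernumerary ATP5L (subunit g) had the highest ratio of the complex, with 150.9 and 190.3 FPKM (ratio 1.26), and ATP5J2 (subunit f) was 336.5 and 348.4 FPKM. The ring of c subunits through which protons pass is encoded by 3 genes for an identical mature protein. ATP5G1 was 258.8 and 273.3 FPKM, ATP5G2 221.2 and 252.1 FPKM, and ATP5G3 139.0 and 98.3 FPKM. Their sum was 619.0 FPKM without and 623.7 FPKM with DAC, a ratio of 1.01, although ATP5G3 alone had a ratio of 0.707. The 12 genes counted as core in complex V were ATP5A1, ATP5B, ATP5C1, ATP5D, ATP5E, ATP5F1, ATP5G1, ATP5G2, ATP5G3, ATP5H, ATP5J and ATP5O. Their ratios ran from 0.671 to 1.14, with a median of 0.805. The median log2 change of complex V was -0.31, and -0.18 with the rescaled values.

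**Figure D2:**
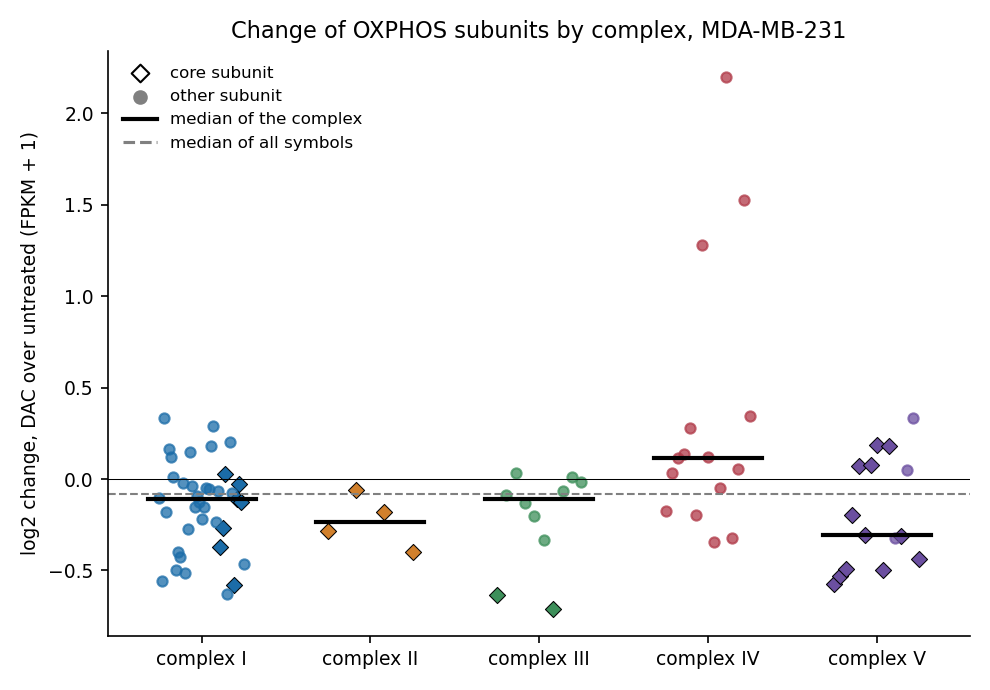
Log2 change (DAC over untreated FPKM, 1 added to both) of each subunit gene that passed 1 FPKM in one or both MDA-MB-231 libraries, by complex; diamonds are core subunits, bars are medians and the dashed line is the median of all symbols, -0.08. Both core subunits of complex III lie under the other subunits of that complex, and the 3 highest points, in complex IV, are isoforms.

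A split by role, made after the values were seen, put these values side by side. The 25 core subunits of complexes I to V had a median log2 change of -0.28 and 20 had a ratio under 1. The 51 supernumerary subunits had a median of -0.066 and 33 had a ratio under 1, about the share over all symbols. Median untreated levels were 139.0 FPKM for core and 155.8 FPKM for supernumerary subunits. Symbols outside the OXPHOS set between 100 and 200 FPKM had a median log2 change of -0.30, and 76.9% had a ratio under 1. The core subunits were thus near other genes of like level, and the supernumerary ones had the higher median. With the rescaled values the medians were -0.15 and 0.062, so that the supernumerary subunits changed sign and the core subunits did not. The summed FPKM of the core subunits was 5131 and 4342, a ratio of 0.846, and that of the supernumerary subunits 10454 and 10227, a ratio of 0.978. Core subunits also have longer mRNAs, with a median length of 1145 bases against 719 bases, and shorter members more often had a ratio of 1 or more. Of the 50 members under 1000 bases, 22 had a ratio of 1 or more, and of the 39 members of 1000 bases or longer, 5 did. As shares these are 44% and 12.8%, beside 45.5% of 739 other symbols under 1000 bases and 38.4% of 10214 longer ones, so the short members were near the share of other genes of their length and the long ones below it. Across the 89 members, the log2 change and the length of the main transcript had a Spearman's rho of -0.37, a description over genes of the same 2 libraries. Across 10953 other symbols rho was -0.14. In complex III the order of length was reversed, with medians of 1217 bases for the 2 core and 1585 bases for the 7 supernumerary subunits. Within complex I the median log2 changes were -0.13 for the 7 core and -0.097 for the 30 supernumerary subunits. In complex III they were -0.67 for 2 core and -0.085 for 7 supernumerary subunits, and in complex V -0.31 for 12 and 0.050 for 3. All members of complex II were counted as core and none of complex IV, so role was also mixed with complex. Role, complex and length were not separated by a test.

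**Figure D3:**
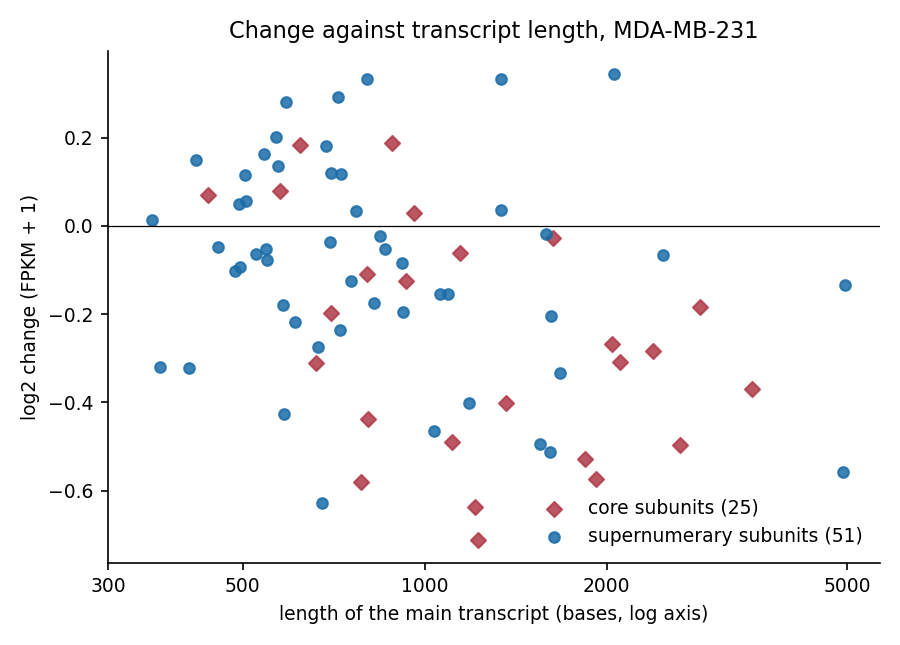
Log2 change against the length of the most abundant transcript (logarithmic axis) for 25 core and 51 supernumerary subunits in MDA-MB-231. Among transcripts over 1000 bases most points lie under 0, and at shorter lengths they spread to both sides.

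Among abundant genes the OXPHOS members had higher medians than the other symbols, a description of 2 libraries with no test. Symbols at 200 FPKM or more on the mean of both libraries had a median log2 change of -0.36 when they were not members (397 symbols), and 83.4% of them had a ratio under 1. The 25 members at this level had a median of 0.033, and 44% had a ratio under 1. Between 100 and 200 FPKM the medians were -0.10 for 26 members and -0.30 for 541 other symbols. Between 10 and 100 FPKM the order was the other way round, with -0.27 for 19 members and -0.21 for 1150 others between 50 and 100 FPKM, and -0.24 for 15 members and -0.14 for 4709 others between 10 and 50 FPKM. In both length classes of abundant genes the members had the higher medians. At 100 FPKM or more and under 1000 bases the medians were 0.012 for 38 members and -0.15 for 224 others, and at 1000 bases or longer they were -0.31 for 13 members and -0.37 for 596 others. Ratios under 1 were found for 47.4% of members and 65.2% of others in the shorter class. In the longer class the shares were the other way round, 92.3% of members and 86.9% of others. Transcripts under 300 bases were left out of the comparisons by length.

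**Figure D4:**
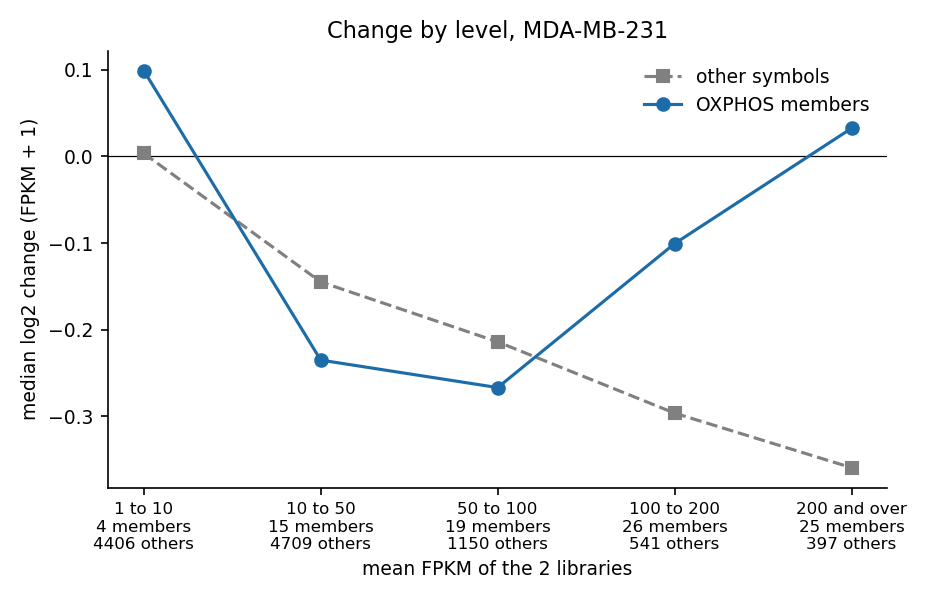
Median log2 change of OXPHOS members and of all other symbols at 1 FPKM or more in both MDA-MB-231 libraries, in bins of the mean FPKM. The lowest bin holds 4 members; at 200 FPKM or more the members lie at 0.033 and the others at -0.36.

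Of the 4 members that differed by more than 2-fold, 3 were isoforms of complex IV that were nearly undetected in untreated cells. The isoforms with restricted expression were taken to be COX4I2, COX6A2, COX6B2, COX7A1, COX7B2, COX8C and NDUFA4L2, together with ATP5L2, a copy of ATP5L of complex V, and each of these 8 was under 1 FPKM in untreated MDA-MB-231 cells. After DAC, 3 of the 8 reached 1 FPKM with a ratio above 2, where 7.07% of the 12101 symbols under 1 FPKM in untreated cells did so. COX7A1, the heart and skeletal muscle form of COX7A (hg19, chromosome 19, 36641824 to 36643351, minus strand), was at 0.420 FPKM (bounds 0 to 1.23) without DAC and at 2.45 FPKM (bounds 0 to 7.19) with it. This corresponds to about 10 and 58 reads and a ratio of 5.84 (95% interval from counting alone, exact, 2.96 to 12.8). COX7B2, a form expressed in testis (chromosome 4, 46736844 to 46911262, minus strand), was at 0.0692 FPKM (bounds 0 to 0.266) and 3.90 FPKM (bounds 0 to 11.3), or about 1 and 56 reads, a ratio of 56.4 with a counting interval of 9.71 to 2265. COX8C, the testis form of COX8 (chromosome 14, 93813528 to 93814702, plus strand), was listed at 0 without DAC and at 1.88 FPKM (bounds 0 to 5.29), about 26 reads, with it. Its locus in the table is shared with UNC79, so some of these reads may belong to that gene. For these 3 genes the bounds of the libraries overlapped, since every lower bound was 0.

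Of the other isoforms, 2 were listed at 0 in untreated cells and stayed under 1 FPKM after DAC. COX6B2, a testis form of COX6B (chromosome 19, 55860674 to 55866087, minus strand), was 0.356 FPKM after DAC, or 22 reads. NDUFA4L2, a hypoxia-induced relative of NDUFA4, was 0.192 FPKM, or 8 reads, in a locus shared with SHMT2. ATP5L2 was 0.0789 and 0.119 FPKM, or 2 and 3 reads. COX4I2, the lung form of COX4, and COX6A2, the muscle form of COX6A, were at 0 in both libraries, where 1 read would be worth 0.0486 and 0.0980 FPKM in the untreated library. The fourth member more than 2-fold higher was NDUFB2-AS1, an RNA antisense to NDUFB2 that the symbol rule includes and that is no subunit. It was 0.373 FPKM (bounds 0 to 2.09) without DAC and 1.01 FPKM (bounds 0 to 3.78) with it, or about 23 and 61 reads, and the kit does not mark strand, so its reads cannot be told apart from those of NDUFB2 where both overlap.

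Beside their widely expressed partners the isoforms stayed minor. After DAC, COX7A1 was at 0.929% of the FPKM of COX7A2 (243.0 and 264.1 FPKM) and COX7B2 at 0.873% of COX7B (461.7 and 446.8 FPKM). COX8C was at 0.197% of COX8A, COX6B2 at 0.0687% of COX6B1 (426.6 and 518.2 FPKM) and NDUFA4L2 at 0.346% of NDUFA4. Of the muscle genes set as markers of other cell types, MYH2 and MYH7 were at 0 in both libraries, and CKM, the muscle creatine kinase, was at 0 without and 1.74 FPKM with DAC and was also in the HMLER list. Whether the CKM signal and that of COX7A1 share a source was not tested.

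**Figure D5:**
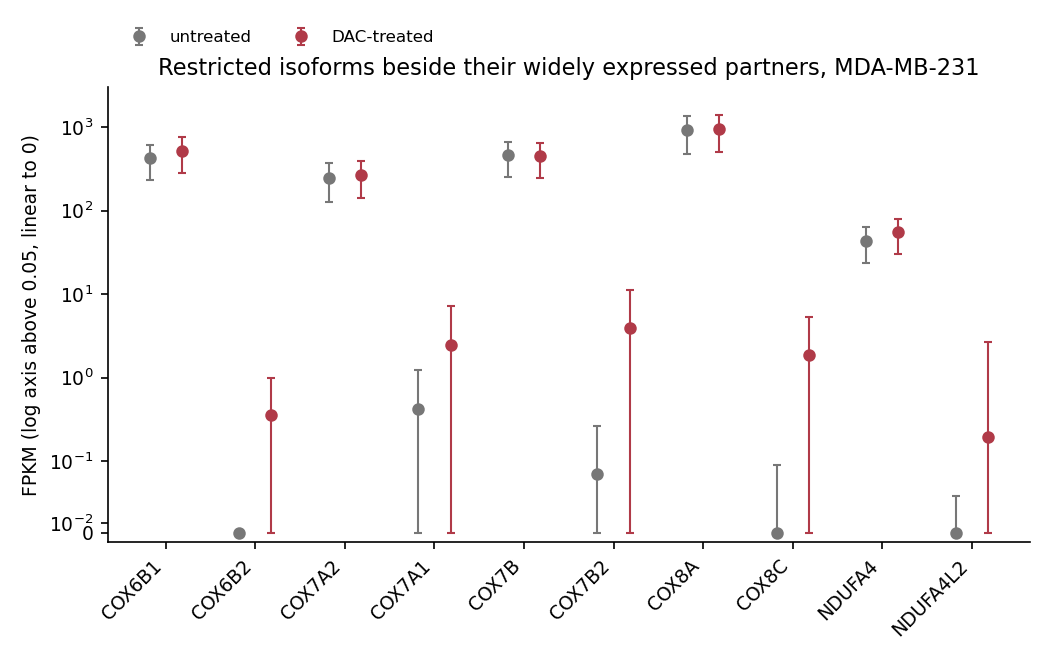
FPKM with Cuffdiff's bounds (bars) of 5 restricted complex IV isoforms, each beside its widely expressed partner, in untreated (grey) and DAC-treated (red) MDA-MB-231 cells; the y axis is logarithmic above 0.05 and linear down to 0. The partners lie between 43.4 and 951.0 FPKM in both libraries and the isoforms do not pass 3.90 FPKM.

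In HMLER cells, 2 of the 99 members (2.02%) were in the list of transcripts more than 2-fold higher after DAC, where 7.85% of all MDA-MB-231 symbols were listed. Both were restricted isoforms of complex IV. COX7A1 was at 0.123 FPKM without and 4.39 FPKM with DAC, a ratio of 35.8 that exceeds that of 92.6% of the transcripts in the list. Its level with DAC exceeds that of 48.9% of them. COX6B2 was 0.724 and 2.14 FPKM, a ratio of 2.96 that exceeds that of 37.8%, and its level with DAC exceeds that of 24.7%. These are the authors' merged values over both libraries of a condition, with no spread. COX7A1 was thus more than 2-fold higher in both lines. COX6B2 was higher in HMLER and detected after DAC alone, with 22 reads, in MDA-MB-231.

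Because DAC inhibits the methylation of CpG dinucleotides, the CpG content of the promoters of these isoforms and of their partners is shown. The 250 bases before the annotated start of each gene are printed 5′ to 3′ in the direction of the gene, with CG in capitals. The sequences come from RefSeq on GRCh38.p14, another build than the hg19 of the expression data, and all positions of promoters are on GRCh38.p14. COX6B1 is chr19:35648073-35648322 on the plus strand. COX6B2 is chr19:55354720-55354969 on the minus strand. COX7B is chrX:77899218-77899467 on the plus strand. COX7B2 is chr4:46909246-46909495 on the minus strand. COX8A is chr11:63974370-63974619 on the plus strand. COX8C is chr14:93346932-93347181 on the plus strand. The promoter of COX7A1 is not printed. All 99 members were matched to a current RefSeq gene, and 68 had 1 promoter entry.
COX6B1: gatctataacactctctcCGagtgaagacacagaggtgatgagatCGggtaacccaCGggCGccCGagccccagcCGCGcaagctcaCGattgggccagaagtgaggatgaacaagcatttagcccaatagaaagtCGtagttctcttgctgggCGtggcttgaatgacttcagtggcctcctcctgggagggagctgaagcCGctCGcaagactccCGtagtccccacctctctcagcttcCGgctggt
COX6B2: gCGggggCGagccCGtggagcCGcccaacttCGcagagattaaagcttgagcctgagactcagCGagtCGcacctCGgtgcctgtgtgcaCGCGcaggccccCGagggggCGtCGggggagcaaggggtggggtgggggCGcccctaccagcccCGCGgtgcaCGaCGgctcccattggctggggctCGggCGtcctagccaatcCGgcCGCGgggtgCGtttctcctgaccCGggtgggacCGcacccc
COX7B: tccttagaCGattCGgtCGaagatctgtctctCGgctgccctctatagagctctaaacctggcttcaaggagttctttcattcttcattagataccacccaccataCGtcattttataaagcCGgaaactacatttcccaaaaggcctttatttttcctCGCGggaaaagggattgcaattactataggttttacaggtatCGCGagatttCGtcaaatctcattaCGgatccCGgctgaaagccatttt
COX7B2: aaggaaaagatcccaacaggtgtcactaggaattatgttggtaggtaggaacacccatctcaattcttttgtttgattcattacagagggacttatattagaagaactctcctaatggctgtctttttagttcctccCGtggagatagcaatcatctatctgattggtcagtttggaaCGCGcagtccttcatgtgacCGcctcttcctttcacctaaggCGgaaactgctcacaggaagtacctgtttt
COX8A: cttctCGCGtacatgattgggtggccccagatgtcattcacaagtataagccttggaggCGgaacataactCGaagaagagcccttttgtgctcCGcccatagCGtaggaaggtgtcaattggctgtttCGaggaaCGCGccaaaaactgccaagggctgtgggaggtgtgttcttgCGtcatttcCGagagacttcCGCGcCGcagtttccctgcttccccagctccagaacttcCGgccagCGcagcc
COX8C: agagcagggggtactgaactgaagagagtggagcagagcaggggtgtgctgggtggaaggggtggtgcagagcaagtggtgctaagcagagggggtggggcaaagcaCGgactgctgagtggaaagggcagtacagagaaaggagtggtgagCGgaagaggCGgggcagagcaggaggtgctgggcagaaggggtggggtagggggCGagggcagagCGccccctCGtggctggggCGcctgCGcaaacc

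COX6B2 has 26 CpG in this window and COX6B1 14. COX7B2 has 5 and COX7B 13, and COX8C has 8 and COX8A 16. Of the other isoforms, COX6A2, at 0 in both libraries, has 1. Over the 63 members at 1 FPKM or more in untreated cells with a promoter entry the median was 19 CpG (quartiles 15 and 25, range 5 to 35), and over the promoters of all 22114 genes with 1 entry it was 9 (quartiles 2 and 22). COX7B2 and COX8C thus had fewer CpG than the lower quartile of the expressed members, and COX6B2 more than the upper one. Methylation of these promoters was not analysed here.

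The promoters of the expressed members were also searched on both strands for motifs of factors known to drive OXPHOS genes. The letters CGCATGCG, the palindromic centre of the NRF1 motif, were in 7 of 63 member promoters (11.1%) and in 1.89% of all 22114. These were the promoters of ATP5C1, ATP5I, COX6A1, NDUFB4, NDUFS6, NDUFS7 and SDHD, genes with ratios from 0.665 (NDUFS7) to 1.10 (COX6A1). The letters CCGGAAG, found in binding sites of ETS factors such as GABPA, were in 15 of 63 (23.8%) and in 8.90% of all. The letters CCAAT were in 19 of 63 (30.2%) and in 33.4% of all. No motif contains another. Both CGCATGCG and CCGGAAG hold CpG and CCAAT does not. The expressed members had a median of 19 CpG in these windows, against 9 over all promoters, which include those of genes not expressed here. Motif shares at like CpG content were not compared. Of the promoters printed above, those of COX6B1 and COX8A hold CCGGAAG, and none of the 6 holds CGCATGCG.

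The other genes of the pathway were described from lists written with earlier results of these data known. All of the 34 further assembly factors analysed passed 1 FPKM in both libraries. Past 2-fold, 0 were higher and 1 was lower, and their median log2 change was -0.16. The lower one was NUBPL, which delivers iron-sulphur clusters to complex I, with 5.98 FPKM (bounds 2.14 to 9.86) and 2.71 FPKM (bounds 0.253 to 5.21). The 17 regulators of mitochondrial gene expression included 15 that passed 1 FPKM, none past 2-fold, with a median log2 change of -0.15. NRF1, the transcription factor of the motif above, was 9.29 and 6.81 FPKM. TFAM, which packages mitochondrial DNA and starts its transcription, was 52.8 and 48.4 FPKM. PPARGC1A, a coactivator of mitochondrial biogenesis, was 0.441 and 0.263 FPKM. The 76 mitochondrial ribosomal protein genes, taken by prefix without pseudogene symbols, of which 75 passed the filter, had a median log2 change of -0.19, and past 2-fold 0 were higher and 1 was lower (MRPL30, 21.3 and 10.3 FPKM), which was not past 2-fold with the rescaled values. The HMLER list held transcripts of 1 of the 34 assembly factors, 2 of the 17 regulators (GABPA and TFAM) and 4 of the 76 ribosomal protein genes. Of all MDA-MB-231 symbols, 7.85% were listed.

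The enzymes of the tricarboxylic acid cycle and of pyruvate dehydrogenase, which supply complexes I and II with electrons, had the lowest median of these lists, -0.44. Of the 18 genes, 17 had a ratio under 1, where 73.0% of the symbols outside the OXPHOS set between 50 and 100 FPKM and 76.9% of those between 100 and 200 FPKM did. The 18 genes lay between 13.3 and 206.5 FPKM. SUCLG2, a subunit of succinyl-CoA ligase, was more than 2-fold lower, with 94.3 FPKM (bounds 51.1 to 141.8) without DAC and 39.6 FPKM (bounds 21.3 to 59.9) with it. The gene with a ratio over 1 was IDH2, the mitochondrial NADP-dependent isocitrate dehydrogenase, with 17.6 and 25.8 FPKM. All 4 subunits of complex II, which belongs to the same cycle, had ratios under 1 as well. On the same scale the median over all symbols was -0.08, and over symbols outside the OXPHOS set it was -0.21 between 50 and 100 FPKM and -0.30 between 100 and 200 FPKM.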

How the data were processed

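RNA-seq tables of 6 libraries were used, grouped by the titles of the samples. The authors aligned reads to hg19 with TopHat2 and deposited FPKM per RefSeq transcript from Cuffdiff, with versions not given in the sources used here. The MDA-MB-231 table (43497 transcripts) has FPKM and bounds for 1 library per condition. The HMLER table (2009 transcripts) has 1 FPKM value per condition, merged over 2 libraries, and holds only transcripts more than 2-fold higher after DAC (lowest ratio 2.00, lowest DAC value 1.00 FPKM). Fold changes, p-values and q-values of the authors' own comparisons were not used. No other columns of samples were present.

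Transcripts were summed per symbol. A gene was counted as higher or lower past a ratio of 2 with 1 FPKM or more in at least 1 library. Log2 changes used a pseudocount of 1 FPKM. No test was run, for want of replicates. The members and gene lists were chosen with earlier results of these data known. Members named are the 3 most abundant and the extremes of each complex, those past 2-fold, those in HMLER, the isoforms with their partners, and CYCS. Genes named beyond this rule were chosen after their values were seen. Positions come from GENCODE on GRCh37 (hg19). The steps were checked on simulated large changes in genes at 5 FPKM or more in untreated cells. That check does not cover genes under 1 FPKM there. Alternatives were other filters (none, 5 FPKM), pseudocounts (0.1, none), a fold of 1.5, division by the median ratio, the largest transcript per symbol, status OK alone, and subunits alone. Computations used pandas 2.3.3, numpy 2.4.6 and scipy 1.17.1 under Python 3.11.15, with plots by matplotlib 3.10.9.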

Additional observations from a re-analysis of the deposited data

How the results depend on the processing

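Dividing DAC values by the median ratio of all symbols moved the medians most. The member median went from -0.11 to 0.023 and the ratio of the sums from 0.934 to 1.02. By complex the median went from -0.11 to 0.023 (I), from -0.23 to -0.11 (II), from -0.11 to 0.020 (III), from 0.12 to 0.25 (IV) and from -0.31 to -0.18 (V), and by role -0.15 for core and 0.062 for supernumerary subunits, with a median of 0.040 over all symbols. Complex IV includes 3 isoforms that passed 1 FPKM only with DAC, and without the isoforms its median was 0.045 in place of 0.12. At 5 FPKM 0 members were more than 2-fold higher, since the isoforms do not reach that level, and with no filter 6 were, where 4.95% and 27.9% of all symbols were. With a fold of 1.5, 6 members were lower and 4 higher, where 15.5% and 17.0% of all symbols were. The other settings kept the medians within 0.1 of the reported ones. Of the named genes, 30 shifted by more than 0.1 (log2) with the division and 3 did not, 4 shifted with a pseudocount of 0.1 FPKM and 3 with none. The split by role was added after the data were seen. No paired analysis was possible because replicates of HMLER were merged into 1 column per condition, and no library could be left out.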

Other observations

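Single transcripts of member genes varied more than their sums. Of 138 member transcripts that passed 1 FPKM in one or both MDA-MB-231 libraries, 14 had a ratio above 2 and 3 were lower by that factor, where 13.9% and 10.0% of all 17744 transcripts at this level were. In NDUFC1, a small complex I subunit with 7 transcripts in the table, the transcript NM_001184990 was at 20.4 FPKM (bounds 0 to 56.8) without DAC and at 0.00274 FPKM (bounds 0 to 0.367) with it, while the sum over the gene had a ratio of 0.845. In NDUFA12, another complex I subunit, NM_001258338 was listed at 0 and at 4.50 FPKM (bounds 0 to 18.3), with a ratio of 0.882 for the gene. How reads were assigned among the overlapping transcripts of a gene was not tested.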
